A study of Mus musculus with 6 samples.

Results

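In a genome-wide survey of DNA methylation in mouse bone marrow cells, 28 genes with a symbol made of Zfp and a number were the nearest gene to at least 1 window with a difference between groups. The members are all windows that the authors assigned to such a gene, each counted once per position, with Zfp503 left out. They came to 48 distinct windows of 500 bp, out of 2135 listed windows near 1223 genes. Neighbouring windows start 250 bp apart and share CpGs, so the 48 windows formed 30 separate regions. Zfp982, which the authors' tables list under its older symbol Gm13152, is not among the members.

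Most Zfp genes encode proteins with C2H2 zinc fingers, short loops held by a zinc ion that read DNA bases. The largest class carries a KRAB domain, which recruits the corepressor TRIM28 and the histone methyltransferase SETDB1, and with them H3K9 methylation and DNA methylation, above all at transposable elements. KRAB zinc finger genes arose by tandem duplication and lie in clusters, several of them on mouse chromosome 7. Other Zfp genes have no KRAB domain, and the Zfp36 family encodes CCCH proteins that bind RNA. The KRAB domain was not annotated here for every member, so a member not called a KRAB gene below may be one.

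Methylation was measured by reduced representation bisulfite sequencing (RRBS), which reads cytosines in DNA fragments cut by MspI at CCGG and so covers CpG-rich DNA most densely. The 6 libraries came from C57BL6 bone marrow cells immortalised with HoxA9, carried in irradiated recipient mice and sorted for GFP. They fall into 3 groups of 2. IDH1wt cells were transduced with pSF91-IDH1wt-IRES-EGFP and IDH1mut cells with pSF91-IDH1mut-IRES-GFP, which carries R132C according to the name of the authors' table. R-2HG cells carried the empty vector and their mice were given 1 mg of R-2HG daily over 4 weeks. Mutant IDH1 makes R-2HG, an inhibitor of dioxygenases such as the TET enzymes, which oxidise 5-methylcytosine. Because the R-2HG group also differs from both others in its vector, vector and treatment cannot be told apart.

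The values are the authors' differences in percentage points between 2 groups, listed only from 25 points and up to a q of 0.00995. No value per library, no read depth and no group mean was analysed here, so no replicate error stands beside a difference, and it is unknown whether the authors' q includes the spread between libraries. A gene name says which start site lies nearest, however far away it is, and no exon, intron or UTR could be assigned. Positions are in build mm9. IDH1wt is subtracted in its 2 comparisons, and IDH1mut is subtracted from R-2HG in the remaining one. The tables fix these signs only up to a reversal of all of them, under which each gain below is a loss. Since both comparisons with IDH1wt use the same 2 IDH1wt libraries, a like difference in both is not independent evidence.

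Between IDH1mut and IDH1wt, 31 windows near 21 Zfp genes were listed, 19 as gains and 12 as losses. The gains included those of 5 neighbouring genes on chromosome 7 and of Zfp804a, and the losses those of Zfp385b, Zfp536, Zfp629, Zfp763 and Zfp213. Gains made up 61.3% of the Zfp windows and 69.3% of all windows in that table. The Zfp gains were smaller than the Zfp losses, with medians of 28.4 and -35.2 points, whereas over all windows the medians were 30.6 and -28.9 points. In IDH1mut the largest Zfp loss was -51.6 points at Zfp385b and the largest gain 40.5 points at Zfp804a in the authors' deposited table. Between R-2HG and IDH1wt, 23 windows near 14 Zfp genes were listed, 14 of them gains (60.9%, against 68.0% of all windows). Their median gain and loss were of like size, 31.7 and -31.7 points. Between R-2HG and IDH1mut, 13 windows near 7 Zfp genes were listed, 7 of them higher in R-2HG (53.8%, against 35.5% of all windows). These shares rest on few windows and the majority turned with how they were counted. Joined into regions, 3 of 7 (42.9%) were higher in R-2HG than in IDH1mut. Among windows within 50 kb of the start, gains against IDH1wt made up 47.4% for IDH1mut and 43.8% for R-2HG. Over all windows listed in either comparison with IDH1wt, gains were 74.4% within 1 kb of the start. At 1 to 50 kb they were 60.8% upstream and 62.2% downstream. For joined regions no share over all windows was computed. With Zfp503 included, gains against IDH1wt made up 71.9% for R-2HG, above the 68.0% of all windows, and 65.7% for IDH1mut.

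Without Zfp503, which was listed too, RefSeq holds 394 protein-coding genes with a Zfp number symbol. The 28 members are 7.11% of them, and with Zfp982 29 (7.36%) were listed in any of the 3 comparisons, against 4.84% of all protein-coding RefSeq genes. For IDH1mut against IDH1wt the members listed were 5.33% of Zfp genes, beside 3.47% of all genes. For R-2HG against IDH1wt the shares were 3.55% and 1.8%, and for R-2HG against IDH1mut 1.78% and 1.49%. No test was made of these shares, and the number of windows read near each gene is unknown. In the 250 bases before the RefSeq start, CCGG was present at least once in 66.8% of 398 Zfp promoters and in 57.1% of 20487 protein-coding promoters. The median number of CpGs was 10.5 in the Zfp promoters and 10 in the protein-coding ones. Their median G and C contents were 54.0% and 56.0%. The part of these promoter differences in the listing of Zfp genes was not tested.

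**Figure D1:**
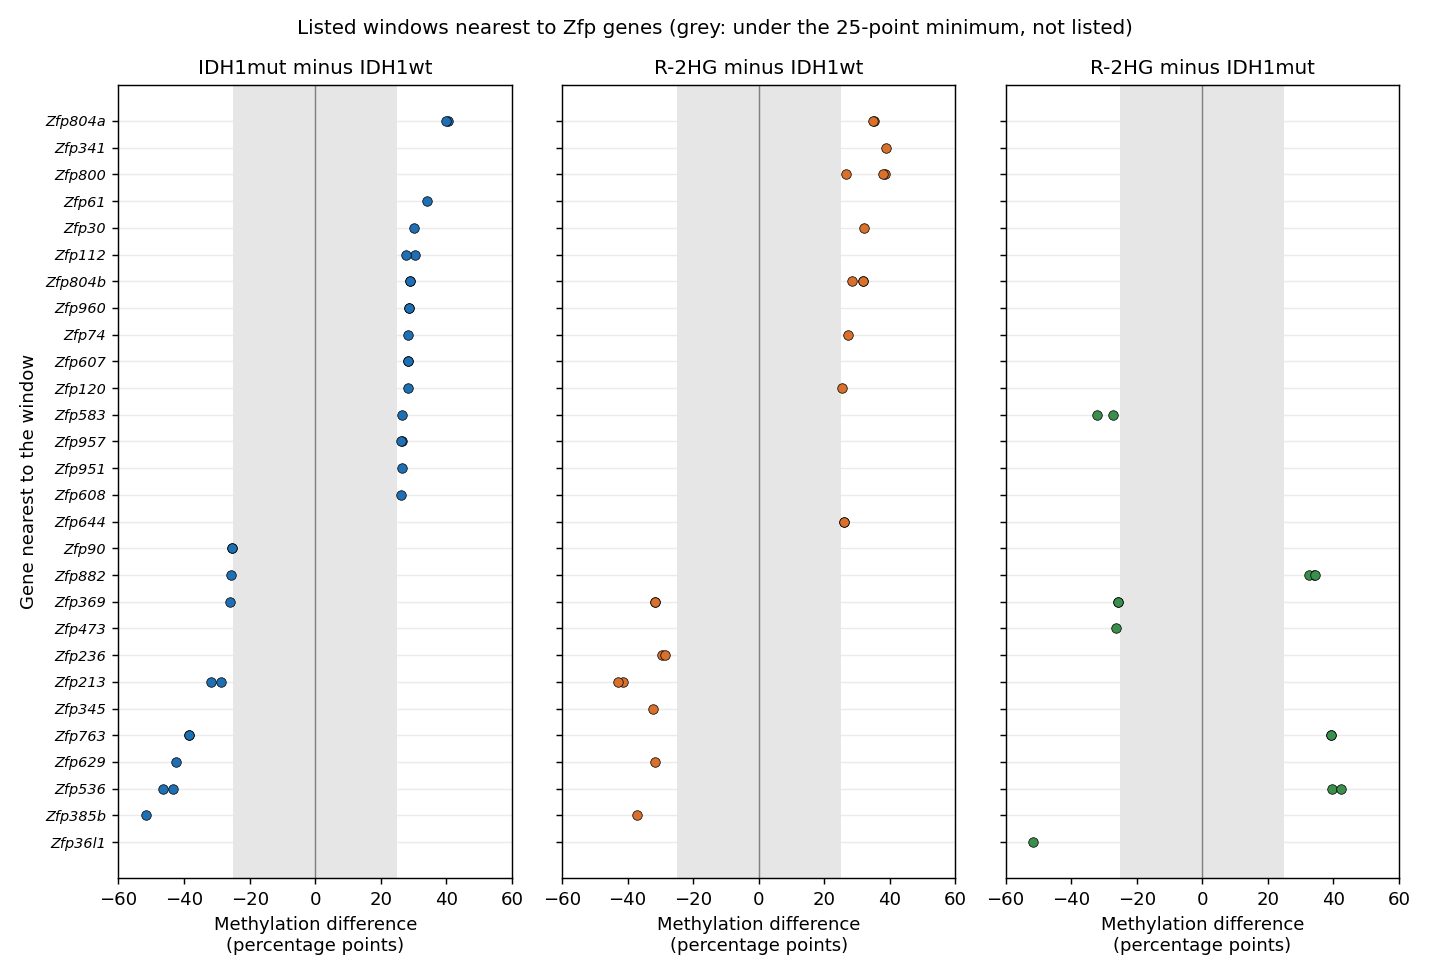
Methylation difference in percentage points (horizontal axis) of each listed window, by nearest Zfp gene (rows), in 3 panels for IDH1mut and R-2HG, each less IDH1wt, and for R-2HG less IDH1mut. Each point is 1 window and the grey band marks differences under 25 points, which are not listed; in IDH1mut the points of Zfp385b, Zfp536 and Zfp629 lie farthest below 0 and those of Zfp804a farthest above.

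Chromosome 7 held 9 of the 28 listed Zfp genes (32.1%). Of all 394 Zfp genes in RefSeq 23.6% are on that chromosome, and of all 1223 listed genes 7.85%. In 1 stretch of it, chr7:24896751-30751000, chosen after its values were seen, all 7 Zfp windows listed for IDH1mut were gains (69.3% over all windows). They belonged to Zfp112, Zfp61, Zfp607, Zfp30 and Zfp74, of which Zfp112, Zfp607, Zfp30 and Zfp74 are KRAB genes. Their differences in the authors' deposited table ranged from 27.8 to 34.1 points. The gains were not limited to Zfp genes: of 9 other windows listed there for IDH1mut, 7 were gains and 2 losses, near Lrfn1, Map4k1, Sptbn4 and Papl. No Zfp window of the stretch was listed between R-2HG and IDH1mut. There, 8 windows near 6 other genes were listed, 7 of them lower in R-2HG (389 of 603 over all windows). Among these were Lrfn1, with -33.4 and -38.3 points, and Map4k1, with -28.4 points, in the authors' deposited table.

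At Zfp112 the gain lay on the start site itself. The authors' deposited table gives 30.5 points for chr7:24896751-24897250, which ends 89 bp before the start, and 27.8 points for chr7:24897001-24897500, which spans it, with a q of 0 for both. Zfp882 is the other member with a window over its start, and there the IDH1mut difference was a loss of -25.8 points (chr8:74432251-74432750) in the authors' deposited table. The 250 bases before the RefSeq start of these 2 genes are shown because the windows reach into this DNA, with each CCGG, the MspI site at which RRBS fragments begin, in capitals. They come from RefSeq's build GRCm38.p6, plus strand in both, Zfp112 at chr7:24112070-24112319 and Zfp882 at chr8:71908356-71908605. These positions are not in mm9, and it was not checked that the authors' start is the same base.
Zfp112: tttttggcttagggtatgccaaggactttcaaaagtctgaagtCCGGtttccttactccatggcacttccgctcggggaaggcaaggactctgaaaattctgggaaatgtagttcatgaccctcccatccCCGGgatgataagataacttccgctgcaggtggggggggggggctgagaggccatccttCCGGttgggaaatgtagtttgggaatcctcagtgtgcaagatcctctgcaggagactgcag
Zfp882: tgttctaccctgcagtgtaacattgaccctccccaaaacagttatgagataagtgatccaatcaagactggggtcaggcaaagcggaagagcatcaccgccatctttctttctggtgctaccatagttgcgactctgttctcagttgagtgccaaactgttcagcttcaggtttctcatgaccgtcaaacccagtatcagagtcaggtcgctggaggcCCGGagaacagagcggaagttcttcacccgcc
The Zfp112 stretch holds 3 CCGG sites and 6 CpGs, and the Zfp882 stretch 1 CCGG site and 8 CpGs. Their G and C contents, 52.8% and 50.8%, are below the median of 56.0% over protein-coding promoters, where the median number of CpGs is 10. Over all Zfp promoters the medians are 54.0% and 10.5 CpGs, and over promoters of the listed Zfp genes 52.8% and 9 CpGs. CCGG is its own reverse complement, so 1 count serves both strands, and a match says only that MspI can cut there.

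Zfp61, a neighbour of Zfp112, gained 34.1 points in IDH1mut in a window 934 bp upstream of its start in the authors' deposited table (chr7:25085501-25086000). Zfp607, which RefSeq now calls Zfp607a, gained 28.3 and 28.4 points in 2 windows 23649 and 23899 bp downstream of its start in the authors' deposited table. Neither gene, nor Zfp112, was listed for R-2HG against IDH1wt. That says only that the threshold was missed or the window not read, and the R-2HG value there is unknown.

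Zfp30 and Zfp74, the KRAB genes at the far end of the stretch, were listed for both groups at the same windows. Zfp30 gained 30.1 points in IDH1mut and 32.3 points in R-2HG at 8444 bp downstream of its start in the authors' deposited tables (chr7:30578251-30578750). Zfp74 gained 28.4 and 27.3 points at 13590 bp upstream in the authors' deposited tables (chr7:30750501-30751000). By subtraction, R-2HG minus IDH1mut was 2.13 points at Zfp30 and -1.11 points at Zfp74.

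Zfp120, a KRAB gene on chromosome 2, was a gain in both groups at 28665 bp downstream of its start. It gained 28.3 points in IDH1mut and 25.5 points in R-2HG in the authors' deposited tables. Its q values there, 0.000181 and 0.000480, were among the larger ones. Zfp213, which encodes a protein with SCAN and KRAB domains, was a loss in both groups in a pair of windows (chr17:23660001-23660750). At 40694 and 40444 bp downstream of its start, IDH1mut differed by -28.7 and -31.9 points and R-2HG by -41.5 and -42.8 points in the authors' deposited tables. The R-2HG loss was the larger in both windows, and R-2HG minus IDH1mut was -12.8 and -10.9 points by subtraction, under the listing threshold. Zfp90, another KRAB gene, lost methylation only just past the threshold in IDH1mut, with -25.5 points in 2 windows 1739 and 1989 bp upstream in the authors' deposited table.

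At 4 genes the IDH1mut difference was listed and R-2HG stood close to IDH1wt instead. There, the differences of IDH1mut from IDH1wt and of R-2HG from IDH1mut share the same 2 IDH1mut libraries. Their opposite signs are therefore not independent evidence. Some closeness follows from the choice of windows, since at all 705 windows listed in only 2 tables the remainder was under 25 points. Its median was 3.91 points at these 6 Zfp windows, beside 4.74 points over all 248 such windows. Zfp763 on chromosome 17 had -38.5 points in IDH1mut against IDH1wt, and R-2HG was 39.4 points above IDH1mut, in 2 windows 7926 and 8176 bp upstream in the authors' deposited tables (chr17:33178251-33179000). Subtraction put R-2HG at 0.869 points from IDH1wt there. Both windows carry the same value and count as 1 measurement.

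Zfp536 encodes a repressor of neuronal differentiation. Its 2 windows, 289522 and 289772 bp downstream of the start, differed by -46.5 and -43.3 points in IDH1mut against IDH1wt in the authors' deposited table (chr7:38264501-38265250). In the authors' deposited table of R-2HG and IDH1mut the same windows were higher in R-2HG by 42.4 and 39.6 points. Subtraction left -4.07 and -3.75 points between R-2HG and IDH1wt. The distance is so long that the windows need not belong to Zfp536.

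The start site of Zfp882, shown above, had the same form. R-2HG was above IDH1mut by 34.0, 32.4 and 34.3 points in 3 windows over and just after the start in the authors' deposited table (chr8:74432251-74433250). Only the first of these was also listed for IDH1mut against IDH1wt, and subtraction put R-2HG 8.17 points above IDH1wt in it. Zfp583, a KRAB gene on chromosome 7, ran the other way. It gained 26.5 points in IDH1mut at 466 bp upstream of its start in the authors' deposited table (chr7:6282501-6283000). R-2HG was lower than IDH1mut there by -32.0 points, and by -27.1 points in the next window, in the authors' deposited table. That put R-2HG at -5.53 points from IDH1wt.

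Zfp369, also known as NRIF2, was the only member with windows in all 3 tables, at 2 places. In the pair of windows 32591 and 32841 bp downstream of its start (chr13:65412751-65413500), R-2HG differed by -31.7 points from IDH1wt and by -25.8 points from IDH1mut in the authors' deposited tables. Subtraction put IDH1mut at -5.89 points from IDH1wt, so at this place R-2HG stood apart. The other place, 36162 bp upstream, had -26.0 points in IDH1mut in the authors' deposited table, with a q of 0.00612.

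**Figure D2:**
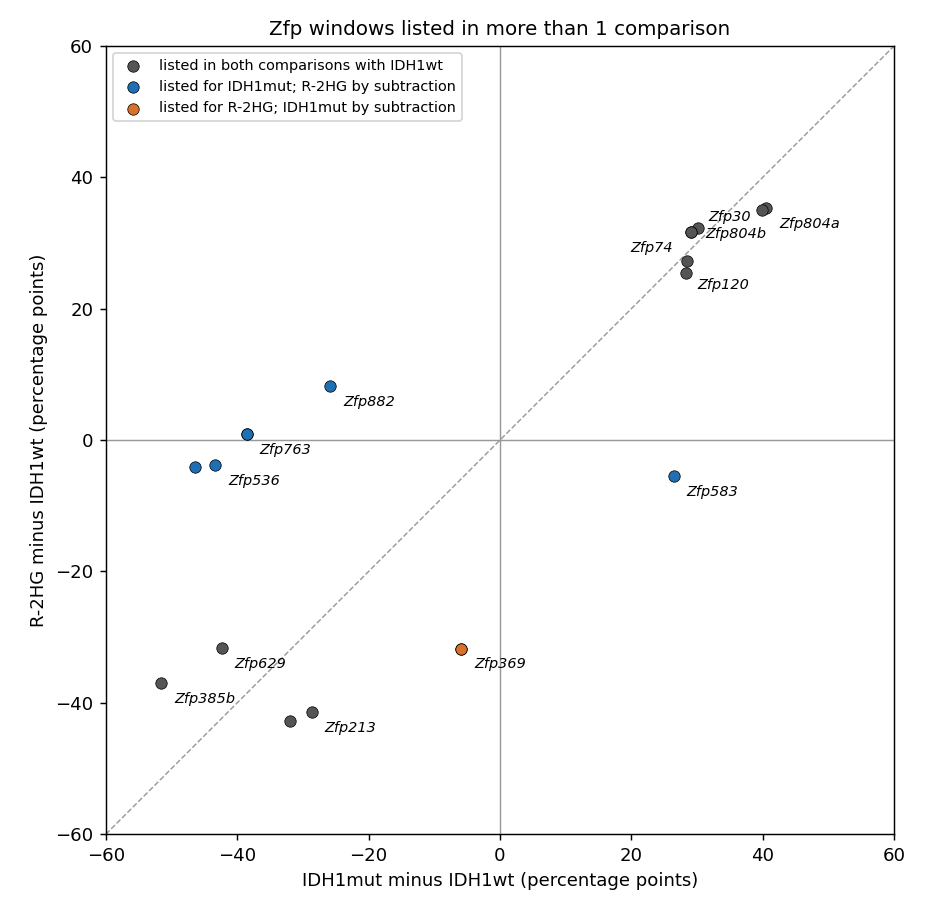
R-2HG minus IDH1wt (vertical axis) against IDH1mut minus IDH1wt (horizontal axis), both in percentage points, for the 19 Zfp windows listed in 2 tables, with the missing comparison obtained by subtraction; the dashed line marks equal differences. Both axes share the IDH1wt libraries; the 11 grey windows lie within 14.6 points of the line, while those of Zfp536, Zfp763, Zfp882 and Zfp583 lie near 0 on the vertical axis and those of Zfp369 near 0 on the horizontal one.

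Over these members, 11 windows near 8 genes were listed for both groups against IDH1wt, which is 35.5% of the 31 IDH1mut windows and 47.8% of the 23 R-2HG windows. Over all windows the shares were 26.0% and 51.7%. In the 11 windows the 2 groups differed from each other by 1.11 to 14.6 points after subtraction, with a median of 4.83 points, beside 4.86 points over all 388 such windows. Another 6 Zfp windows were listed for IDH1mut against both other groups (19.4% of the IDH1mut windows, against 16.8% over all windows), and 2 for R-2HG against both (8.70%, against 10.0%).

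Of the other members, Zfp385b had the largest loss against IDH1wt. Its single window, 629 bp upstream of the start, differed by -51.6 points in IDH1mut and -37.0 points in R-2HG in the authors' deposited tables (chr2:77655501-77656000). Zfp629 also lost in both groups, with -42.3 and -31.6 points at 6555 bp upstream in the authors' deposited tables. At both genes the IDH1mut loss was the larger, by 14.6 and 10.7 points after subtraction, and neither window was listed between R-2HG and IDH1mut.

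The paralogues Zfp804a and Zfp804b, whose human counterparts include a schizophrenia risk gene, were gains in both groups, but in windows far upstream of their starts. For Zfp804a, IDH1mut gained 40.5 and 39.8 points and R-2HG 35.3 and 35.0 points in 2 windows at 592815 and 592565 bp in the authors' deposited tables (chr2:81300501-81301250). For Zfp804b, the windows at 160874 and 161124 bp had the same value in each table, 29.0 points in IDH1mut and 31.7 points in R-2HG, in the authors' deposited tables. A further Zfp804b window at 148124 bp was listed for R-2HG alone, with 28.3 points and a q of 0.00160 in the authors' deposited table.

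Zfp341, whose human counterpart activates STAT3 transcription, was listed for R-2HG alone and had the largest Zfp gain against IDH1wt in that group. It gained 38.7 points in a window 1399 bp downstream of its start in the authors' deposited table (chr2:154440501-154441000). Zfp800 gained 26.5, 38.4 and 38.0 points in R-2HG in 3 windows 45852, 45602 and 45352 bp downstream in the authors' deposited table. Zfp644, whose human counterpart binds the H3K9 methyltransferases G9a and GLP, was also listed for R-2HG alone. It gained 26.0 points in 2 windows 61153 and 61403 bp upstream in the authors' deposited table.

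The losses listed for R-2HG alone were at Zfp345 and Zfp236. Zfp345 lies near Zfp120 on chromosome 2 and differed by -32.1 points at 14300 bp downstream in the authors' deposited table, while Zfp120 was a gain. Zfp236 differed by -29.7 and -28.6 points at 9126 and 9376 bp upstream in the authors' deposited table, with q values of 0.00455 and 0.00829.

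Further gains listed for IDH1mut alone were those of Zfp608, Zfp951, Zfp957 and Zfp960. All were between 26.1 and 28.7 points and more than 50 kb from the start in the authors' deposited table. Zfp608 had 26.1 points at 632418 bp upstream and Zfp951 26.4 points at 54665 bp upstream in the authors' deposited table. Zfp957 had 26.6 and 26.3 points at 104425 and 104175 bp downstream in the authors' deposited table. Zfp960 had 28.7 points in 2 windows at 141817 and 141567 bp upstream in the authors' deposited table.

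Zfp473 and Zfp36l1 were listed only between R-2HG and IDH1mut. Zfp473 encodes a protein of the U7 snRNP, which processes histone mRNA, and R-2HG was lower there by -26.3 points at 238 bp downstream of the start in the authors' deposited table (chr7:52003251-52003750, q = 3.51e-05). Zfp36l1 encodes a CCCH protein that binds AU-rich elements and promotes mRNA decay. Its window had the largest difference of any member, -51.8 points in R-2HG against IDH1mut, at 89501 bp downstream in the authors' deposited table, with a q of 0.00185. It is 1 of 4 genes of the Zfp36 family, and the others were not listed; over all protein-coding RefSeq genes 1.49% were listed in this comparison, so a family of 4 says little. With no value against IDH1wt at either gene, these differences do not say which group moved.

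Of the 48 windows, 10 (20.8%) lay within 1 kb of the start, beside 18.3% of all listed windows, and 16 (33.3%) lay beyond 50 kb, beside 29.0%. The members within 1 kb were Zfp112, Zfp61, Zfp385b, Zfp473, Zfp583 and Zfp882. By comparison, windows within 1 kb were 6 of 31 for IDH1mut against IDH1wt (19.4%, against 18.5% over all windows) and 1 of 23 for R-2HG against IDH1wt (4.35%, against 13.7%). For R-2HG against IDH1mut they were 6 of 13 (46.2%, against 20.9%), from Zfp473, Zfp583 and Zfp882 alone. The median distance was 30628 bp for the Zfp windows and 18053 bp for all.

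The 43 Zfp windows listed against IDH1wt were also counted by position. All 11 windows of 6 genes more than 50 kb upstream were gains (Zfp608, Zfp644, Zfp804a, Zfp804b, Zfp951 and Zfp960), where 76.1% of all such windows were gains. Of the 9 windows of 6 genes 1 to 50 kb upstream, 8 were losses and only that of Zfp74 was a gain, where 60.8% of all such windows were gains. The other positions held both directions. These counts were noted after the values were seen, rest on few regions and carry no test.

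**Figure D3:**
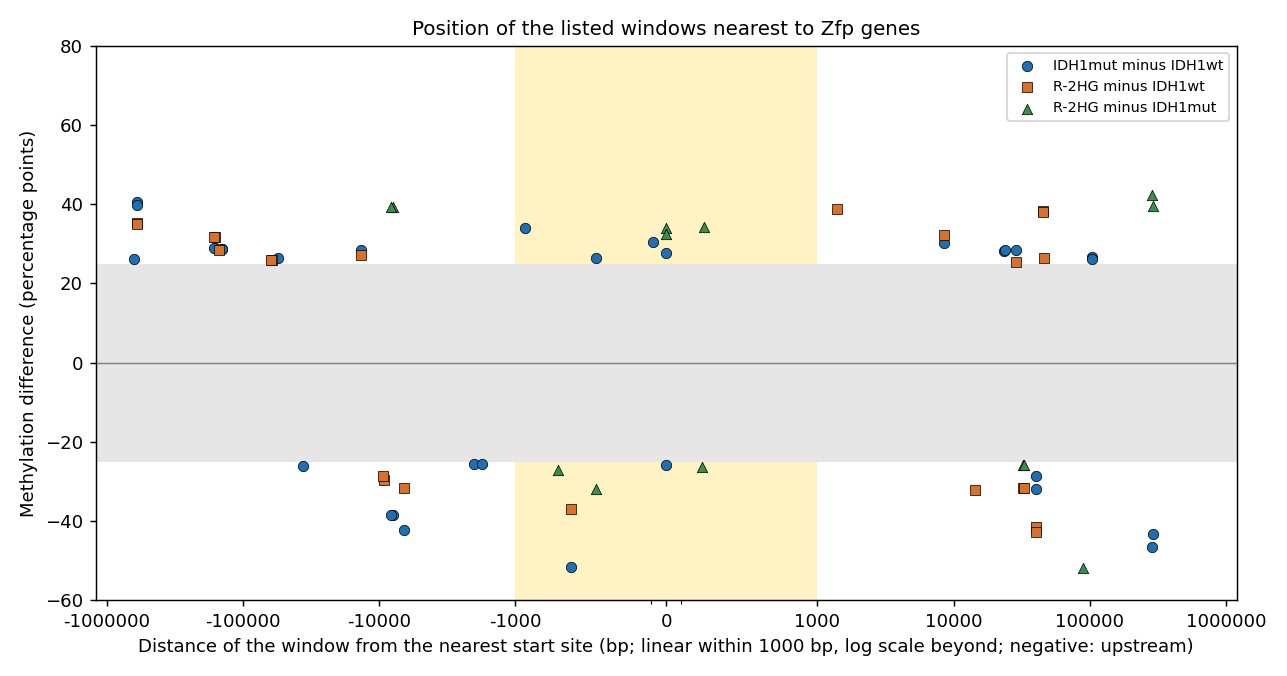
Methylation difference in percentage points (vertical axis) of the listed Zfp windows against their distance from the nearest start site in bp (horizontal axis, linear within 1000 bp and log beyond, negative upstream); symbols and colours give the comparison, the yellow band marks 1 kb around the start and the grey band differences under 25 points. Against IDH1wt, all 11 windows more than 50 kb upstream are gains, and 8 of 9 between 1 and 50 kb upstream are losses.

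A list of 19 genes of KRAB corepression and DNA methylation included Trim28, Setdb1 and the Cbx genes. Of these 19, 1 was listed (5.26%, beside 4.84% of all protein-coding RefSeq genes), the methyltransferase gene Dnmt3a. Its start site had 25.8 points in IDH1mut against IDH1wt, and an overlapping window -35.8 points in R-2HG against IDH1mut, in the authors' deposited tables. Other zinc finger families (Zbtb, Zscan, Zkscan, Zfhx, Zc3h, Zic, Klf, Egr, Gli, Ikzf and Znf) count 121 RefSeq genes, of which 6 were listed (4.96%, again beside 4.84%). For IDH1mut against IDH1wt these gave 4 gains and 5 losses, where 69.3% of all windows were gains. They were windows of Gli2, Zc3h15, Zbtb7c, Egr3, Klf17 and Zkscan14. The largest losses were at Klf17, with -48.6 points in IDH1mut and -33.8 points in R-2HG at -21481 bp from the start in the authors' deposited tables. Zbtb7c had a gain of 48.3 points at 104921 bp and a loss of -30.5 points at -59332 bp in IDH1mut in the authors' deposited table. For R-2HG against IDH1mut, 3 windows of these families were listed, all lower in R-2HG (389 of 603 over all windows). They were the gained window of Zbtb7c with -29.1 points, an overlapping one with -28.0 points, and 1 of Zc3h15 with -25.2 points.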

How the data were processed

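RRBS was done on 6 libraries in 3 groups of 2, grouped by their titles. The submitters' processing notes name Trim Galore, BSMAP, methylKit 0.9.1 and the build mm9, and the sources used here do not give settings, coverage filter or test. Each row holds, per the file headers, a window, a p-value and q-value, a methylation difference (a signed score in percentage points) and the signed distance to the nearest start site. Nothing in the labels says that libraries are from separate animals, so the authors' p-values cover at most the spread between these libraries, which may be technical. Depth is unknown.

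Rows repeated for a further transcript were counted once (64, 4 and 1 rows). The windows behind 5, 2 and 1 absent row numbers were not used here. Of 4 sign orders, 1 left a residual of 0 at the 3 windows in all tables and no remainder of 25 points or more at 705 windows in 2 tables, and the IDH1wt and R-2HG table was reversed accordingly. Windows of 1 gene within 1000 bp were joined into regions; joining and sign order were tested on simulated data. All 28 transcripts matched RefSeq by accession, and 23 of the 28 genes had a promoter there.

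No test between groups was made. Members and lists were chosen with earlier results of these data known. Every member is named; values in full were planned for genes in 2 tables, with 2 windows in a table, within 1 kb of the start, or among the 3 largest gains or losses. Alternatives were a minimum difference of 30 points, a q of at most 0.0001, joined windows, a distance of at most 50 kb, a promoter limit of 2 kb and Zfp503 included. Python 3.11.15 and pandas 2.3.3 were used.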

Additional observations from a re-analysis of the deposited data

Results flagged for a closer look

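Windows near 5 genes were listed against IDH1wt for 1 of the 2 groups and also in the authors' direct comparison of R-2HG with IDH1mut, so that the groups' differences from IDH1wt differed from each other by the authors' own test. As R-2HG minus IDH1mut, the values in the authors' deposited table were -25.8 points in both windows of Zfp369, 39.6 and 42.4 points at Zfp536, -32.0 points at Zfp583, 39.4 points in both windows of Zfp763 and 34.0 points at Zfp882. The unlisted group stood 0.869 to 8.17 points from IDH1wt by subtraction at the 4 genes where it was R-2HG, and IDH1mut stood -5.89 points from it at Zfp369. Some of this closeness follows from the choice of windows. The 2 listed differences of each window also share the 2 libraries of 1 group, so they are not independent evidence.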

How the results depend on the processing

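Of 48 recomputed values, 42 stayed within 1.5 times the count or within the exact 95% binomial interval of the share. The interval takes windows as independent, which neighbouring windows are not. It is also wide, 25.1% to 80.8% for the 53.8% of R-2HG against IDH1mut, so that 77.8% at a minimum of 30 points counted as within it. Staying within an interval therefore does not show that a share is stable. With a minimum difference of 30 points, the Zfp windows fell from 31 to 12 for IDH1mut against IDH1wt and from 23 to 15 for R-2HG against IDH1wt, and the share of gains in the former went from 61.3% to 41.7%, below an even split, since the Zfp gains were the smaller differences. Only 19 of the 31 IDH1mut windows lay within 50 kb of the start. Joining windows left 15 regions of 23 windows for R-2HG against IDH1wt and 7 of 13 for R-2HG against IDH1mut. Some shares kept within their intervals still crossed an even split: gains among joined regions of R-2HG against IDH1mut were 42.9%, and gains within 50 kb were 47.4% for IDH1mut and 43.8% for R-2HG against IDH1wt. Including Zfp503 moved none of the values past these limits. It did raise the share of gains for R-2HG against IDH1wt from 60.9% to 71.9%. That is above the 68.0% of all windows there, which include those of Zfp503. The lower Zfp share in that comparison thus depends on leaving out Zfp503. For IDH1mut against IDH1wt the share became 65.7%, still below the 69.3% of all windows. Shares over all windows were not recomputed under these alternatives, so an even split is not a background share. Of the 67 listed values, 12 near 7 genes had a q above 0.0001: Zfp120, Zfp236, Zfp345, Zfp369, Zfp36l1, Zfp804b and Zfp957. Of 24 pairs of neighbouring windows, 9 had the same difference (within 1e-09 points) and so add no measurement. No paired analysis was possible because the tables hold no value per library, and for the same reason no library could be left out. What depth limits cannot be said, since it is unknown.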
